A study of Mus musculus with 12 samples.

Results

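The members described here are the cadherins and non-clustered protocadherins of the mouse, measured in RNA bound to HA-tagged ribosomes that was recovered from the postnatal retina. They were defined by gene name: the numbered Cdh and Pcdh genes, Fat1 to Fat4, Dchs1, Dchs2 and Celsr1 to Celsr3, without Cdh5. Earlier results of these data were known when this family was chosen. The names matched 43 genes of 53090 gene rows, and 39 of them had a summed expected count of at least 100 over the 12 libraries. All 39 passed the low-count filter and were among the 18638 genes tested. The 4 others were Cdh15, Cdh16, Cdh17 and Cdh26, with summed counts of 79, 6, 89 and 87, and they were not tested. Celsr3 stood in the tables under a pair of gene identifiers with identical values in every library and was counted once.

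Libraries came from retinas of C57BL/6 mice, with no further genotype given, at postnatal day 3 (P3, 6 libraries) or day 9 (P9, 6 libraries), and all mice of both ages had received tamoxifen intraperitoneally on days 1 and 2. The time since tamoxifen was therefore longer at P9, and cannot be told apart from age. The labels call the cells retinal pericytes, but which promoter drove the tag, and how many animals went into a library, they do not say. The p-values therefore reflect only how these libraries scatter, which may be technical. The series follows mural cells while the retinal vessels grow and remodel, and P9 against P3 is its comparison.

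Cadherins are calcium-dependent adhesion proteins whose extracellular repeats bind partners on the neighbouring cell. Classical cadherins of type I and type II hold cells of like kind together and are tied to actin by catenins. Delta protocadherins bind weakly and act in sorting and wiring of neurons, Fat and Dachsous proteins pair with each other across cell borders in planar polarity and growth control, and Celsr proteins are seven-pass cadherins of the core planar polarity pathway. In the retina N-cadherin binds pericytes to endothelium and neurons to one another, and type II cadherins mark subsets of neurons.

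The levels are CPM, a gene's count relative to its library's total, after scaling by trimmed means of M values (TMM). A fold change is P9 over P3 in the quasi-likelihood fit of edgeR, with an adjusted p (Benjamini-Hochberg over all tested genes) under 0.05 taken as passing. CPM is not divided by transcript length, so no level was set against that of another gene. A level of 1 CPM stood for 25.8 to 38.5 counts in these libraries, which bounds the precision of members near that level. Correlations between libraries of an age were 0.952 to 0.974, and no pair of libraries differed by as little as sampling noise.

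Between P3 and P9, 20 members rose, 11 fell and 8 did not pass. Members called made up 79.5% of the 39, against 51.8% of all tested genes and 60.4% of the tested genes with a summed count of at least 1000. The family was chosen with earlier results known, so the shares given here are descriptive. Risers were 51.3% of the members against 26.1% of all genes, and members that fell 28.2% against 25.6%. Of the 35 members with a summed count of at least 1000, 19 rose (54.3%) and 10 fell (28.6%), where 30.4% and 30.0% of the tested genes past that count did. With at least a 2-fold change, 12 members rose and 7 fell, where 10% and 8.01% of all genes did. For 22 members the ranges of both ages were apart, 15 of them higher at P9 and 7 higher at P3. That is 56.4% of members against 31.7% of all genes, of which 16.3% were higher at P9 and 15.4% at P3. The median log2 fold change was 0.47 over the members and -0.002 over all tested genes. By class, 8 of 10 delta protocadherins rose and none fell, 7 of 12 type II cadherins rose and 2 fell, and 7 of 9 genes of the Fat, Dachsous and Celsr classes fell and 1 rose.

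**Figure D1:**
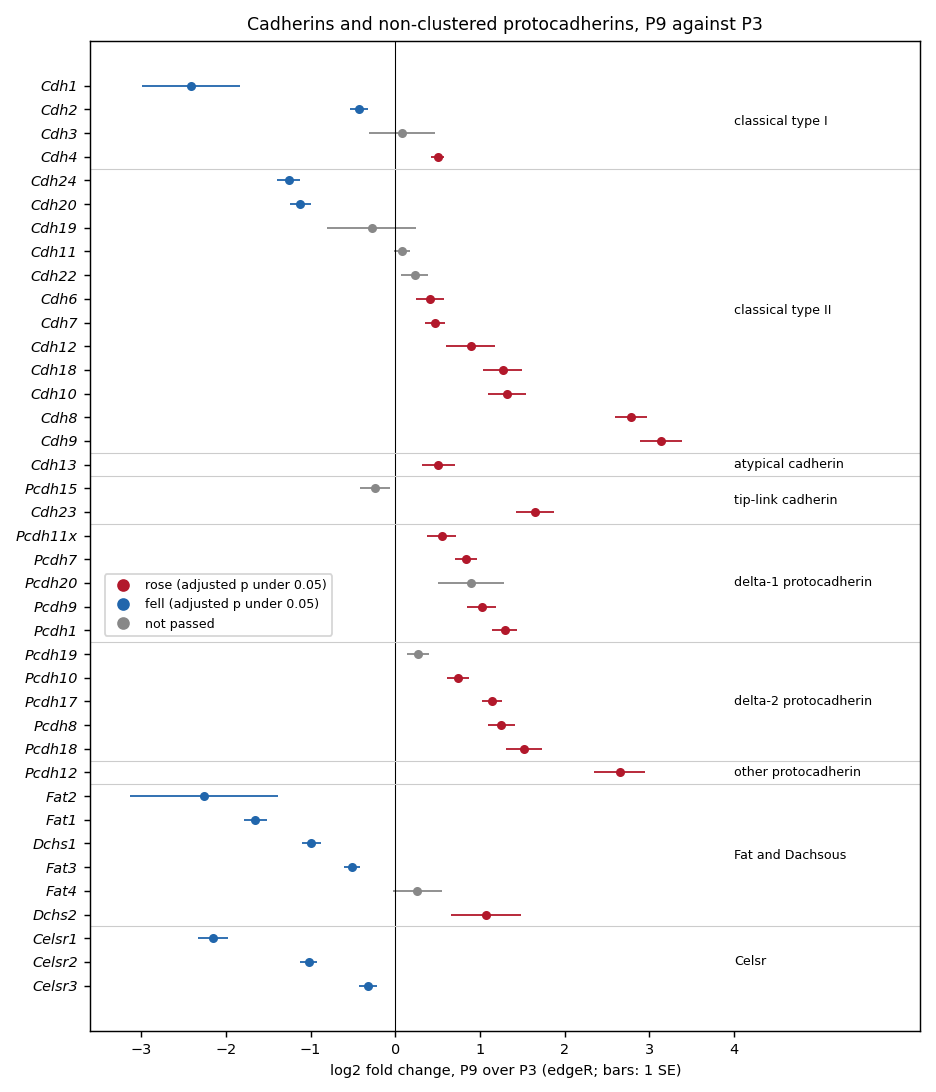
Log2 fold change of each of the 39 members, P9 over P3, with 1 SE, grouped by class; colours give members that rose, fell or did not pass an adjusted p of 0.05. All 10 delta protocadherins lie to the right of 0, whether or not they passed, and all 3 Celsr genes to the left.

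Markers of many cell types moved in the same libraries. Of 14 marker classes, 12 differed between the ages in summed CPM (exact permutation test, two-sided, 6 against 6 libraries, adjusted over the classes). The pericyte sum rose 5.59-fold, from 392 to 1380 CPM at P3 to between 2836 and 6375 CPM at P9, with 10 of its 12 markers rising (adjusted p = 0.00337, exact). The rod sum rose 5.91-fold from a range of 1328 to 2787 to one of 7377 to 15221 CPM, with 9 of 9 markers rising, and the bipolar cell sum 13.8-fold from 120 to 142 to between 1237 and 2117 CPM, with 9 of 9. The progenitor sum was 1.80-fold lower at P9, from 1342 to 1901 down to 799 to 1012 CPM, with 8 of 9 markers falling. The lens sum was 48.5-fold lower, from 3841 to 12089 down to 60.5 to 1753 CPM, with P9 replicate 2 at 1753 and the other P9 libraries at 202 CPM or less. Horizontal, ganglion, pigment epithelium, Mueller glia and microglia sums were 1.98-fold, 1.63-fold, 1.75-fold, 1.34-fold and 1.33-fold higher at P9 and the amacrine sum 1.44-fold lower. Among horizontal, ganglion and Mueller glia markers, 4 of 6, 6 of 9 and 5 of 7 rose and 1, 2 and 1 fell. Among pigment epithelium and microglia markers, 2 of 7 and 4 of 7 rose and the others did not pass. Of the 9 amacrine markers 3 rose and 4 fell, and their mean log2 level differed by -0.06 and did not pass (adjusted p = 0.0862, exact permutation test). Astrocyte and fibroblast sums did not pass (adjusted p = 0.671 and 0.0862, exact permutation test). The mean log2 level of the astrocyte markers was 0.37 higher at P9 and passed (adjusted p = 0.048, exact permutation test). Of these 5 markers 2 rose and 1 fell. The fibroblast list's sum and its members' median pointed in opposite directions (log2 1.11 and -1.32). In ribosome-bound RNA pooled over cells, fewer cells of a type, less RNA per cell and less RNA recovered from them cannot be told apart. The part of these cell types in the changes of the members was not tested. Among P3 libraries, replicates 4 and 5 had the highest pericyte sums, 1250 and 1380 CPM against 392 to 710 CPM in the other 4. They also had the highest rod sums of that age (2787 and 2607 CPM) and the highest Mueller glia sums (1315 and 1373 CPM). Their progenitor sums were the lowest of that age (1367 and 1342 CPM), so these libraries stood apart in more than pericyte markers.

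Among type I cadherins, Cdh1 and Cdh2 fell, Cdh4 rose and Cdh3 did not pass. Cdh2 (ENSMUSG00000024304.14, chromosome 18, 16588877 to 16809246 on mm10), which encodes N-cadherin, was at 229, 343 and 402 CPM (lowest, median and highest) at P3 and at 223, 245 and 266 CPM at P9. The ages overlapped through P3 replicate 1, the lowest of its age, while the other 5 P3 libraries stood at 308 CPM or more. Cdh2 was 1.35-fold lower at P9 (log2 fold change -0.43 ± 0.11, SE; edgeR adjusted p = 0.00437). Cdh4, which encodes R-cadherin, a retinal cadherin, went from 43.6 to 55.0 CPM at P3 up to 62.4 to 77.9 CPM at P9 without overlap (log2 fold change 0.50 ± 0.08, edgeR adjusted p = 8.66e-05). Cdh1 (ENSMUSG00000000303.12, chromosome 8, 106603350 to 106670247), the E-cadherin of epithelia, stood at 4, 7.75 and 25.2 CPM at P3 and at 0.453, 1.24 and 4.85 CPM at P9. The highest value was that of P3 replicate 1, and P9 replicate 3 with 4.85 CPM reached above the lowest P3 libraries. The fall of Cdh1 was 5.31-fold (log2 fold change -2.41 ± 0.58, edgeR adjusted p = 0.00298) and passed without P3 replicate 1 too. P3 replicate 1 also held the highest Fat2 of all libraries and a fibroblast marker sum of 541 CPM, against 40.1 to 84.8 CPM in the other P3 libraries. Cdh3, the P-cadherin gene and direct neighbour of Cdh1 on chromosome 8, ranged from 0.933 to 5.68 CPM at P3 and from 1.45 to 4.84 CPM at P9 (log2 fold change 0.08 ± 0.39, edgeR adjusted p = 0.879).

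Type II cadherins held the largest rises of all members. Cdh9 (ENSMUSG00000025370.6, chromosome 15, 16728550 to 16857138), a synaptic and neuronal cadherin, was at 0.963, 1.42 and 2.38 CPM at P3 and at 7.74, 13.4 and 17.4 CPM at P9. The lowest P9 library, replicate 3, stood above every P3 library. The rise was 8.84-fold (log2 fold change 3.14 ± 0.25, edgeR adjusted p = 1.73e-07). Cdh8 (ENSMUSG00000036510.17, chromosome 8, 99024471 to 99417666), a cadherin of bipolar cells and other neurons, went from 3.73, 5.36 and 8.93 CPM to 34.4, 40.3 and 41.9 CPM. Its 6 P9 libraries lay close together, and its highest P3 values were in replicates 5 and 4. Cdh8 rose 6.85-fold (log2 fold change 2.78 ± 0.19, edgeR adjusted p = 5.77e-08). The bipolar markers in these libraries rose 13.8-fold in sum.

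Cdh18 and Cdh10, both neuronal, rose by smaller factors and again without overlap. Cdh18 was at 2.05, 3.78 and 6.96 CPM at P3 and at 9.12, 10.1 and 11 CPM at P9 (2.42-fold, edgeR adjusted p = 0.000297). Cdh10 was at 1.38, 2.48 and 3.05 CPM at P3 and at 4.26, 5.84 and 7.21 CPM at P9 (2.49-fold, edgeR adjusted p = 0.000136). Cdh12, Cdh7 and Cdh6 rose less, 1.86-fold, 1.39-fold and 1.33-fold, and their ages overlapped. The Cdh6 call (edgeR adjusted p = 0.0449) was lost without P3 replicate 1, 3, 5 or 6 or P9 replicate 1, 2, 3, 5 or 6, each left out alone (adjusted p up to 0.0959).

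The type II genes Cdh6, Cdh9, Cdh10, Cdh12 and Cdh18 lie next to each other on mouse chromosome 15 between 13028699 and 23477491, a span of 10.4 Mb (RefSeq, GRCm38.p6, to which mm10 corresponds). The span holds 2 other genes that RefSeq lists as coding, neither of which passed the low-count filter. All 5 cadherins of the span rose, with log2 fold changes of 0.41 to 3.14. Of all tested genes 26.1% rose, and 30.4% of those with a summed count of at least 1000. The calls of Cdh6 and Cdh12 were lost under 12 and 1 of 22 alternatives. Celsr1, on the same chromosome but far from them, fell. RefSeq's promoter table, which gives 300 bases from 250 before to 50 after a start site, held entries for these 5 genes. The promoters of Cdh6, Cdh9 and Cdh18 are shown because the longest stretches shared between any pair of the 5, read on the coding strand, lie in them, and capitals mark those stretches. They span chr15:13173626-13173925 (minus strand), chr15:16728665-16728964 and chr15:23036213-23036512 (plus strand), all on GRCm38.p6:
Cdh6: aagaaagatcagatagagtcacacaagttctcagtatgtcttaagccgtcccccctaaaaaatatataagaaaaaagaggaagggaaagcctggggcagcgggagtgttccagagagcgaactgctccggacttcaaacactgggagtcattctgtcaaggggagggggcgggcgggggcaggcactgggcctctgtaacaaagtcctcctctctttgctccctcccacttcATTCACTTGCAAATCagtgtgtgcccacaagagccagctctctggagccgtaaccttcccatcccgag
Cdh9: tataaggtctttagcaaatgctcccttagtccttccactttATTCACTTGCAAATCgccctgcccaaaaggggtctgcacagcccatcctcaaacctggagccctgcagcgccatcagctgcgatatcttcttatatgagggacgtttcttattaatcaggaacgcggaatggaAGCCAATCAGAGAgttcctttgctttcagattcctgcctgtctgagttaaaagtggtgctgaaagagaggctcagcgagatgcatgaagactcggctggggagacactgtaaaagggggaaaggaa
Cdh18: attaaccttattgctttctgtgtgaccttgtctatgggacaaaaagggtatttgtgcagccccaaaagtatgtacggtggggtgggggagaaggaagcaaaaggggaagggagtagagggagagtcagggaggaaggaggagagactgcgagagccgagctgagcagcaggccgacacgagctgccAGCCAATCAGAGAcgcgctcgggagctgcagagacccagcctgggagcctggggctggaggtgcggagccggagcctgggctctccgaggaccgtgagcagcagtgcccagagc
Cdh6 and Cdh9 share the 15 bases ATTCACTTGCAAATC, which begin 18 bases before the listed start of Cdh6 and 209 before that of Cdh9. On either strand this stretch occurs in 2 of the 32851 promoters of the table, those of Cdh6 and Cdh9. Cdh9 and Cdh18 share the 13 bases AGCCAATCAGAGA, which begin 76 and 64 bases before their starts, hold the letters CCAAT and occur in 31 promoters of the table. These stretches were picked after the sequences were compared and are a description of the letters. They are not evidence of binding. The listed starts of Cdh6, Cdh9 and Cdh18 lie inside the genes (13028699 to 13176407, 16728550 to 16857138 and 22548898 to 23477491) and not at their outer 5' ends. CCAAT, on either strand, occurred in 15 of 30 promoters of members in the table, 50% against 37.4% of all promoters. The 30 windows belong to 27 members, and Cdh7 and Pcdh9 have more than 1.

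The type II members that fell were Cdh24 and Cdh20. Cdh24 went from 42.9, 70.3 and 81.7 CPM at P3 to 23.2, 27.1 and 33.5 CPM at P9, a 2.39-fold fall (log2 fold change -1.26 ± 0.14, edgeR adjusted p = 5.26e-06). The pair of P3 libraries with the highest pericyte sums, replicates 4 and 5, held the lowest P3 values of Cdh24, 52.4 and 42.9 CPM. Cdh20, a cadherin of neural and neural crest tissue, went from 35.6, 44.8 and 49.2 CPM to 14.4, 20.9 and 24.3 CPM (2.17-fold lower, edgeR adjusted p = 2.41e-06). Neither gene's ages overlapped. Cdh11, the cadherin of mesenchyme and bone, ranged from 84.2 to 123 CPM at P3 and from 95.7 to 135 CPM at P9 (log2 fold change 0.08 ± 0.10, edgeR adjusted p = 0.556). Cdh22 (0.23 ± 0.16) and Cdh19 (-0.28 ± 0.52) did not pass either. Cdh22 passed without P3 replicate 5 (log2 fold change 0.37, edgeR adjusted p = 0.0317) and without P3 replicates 4 and 5 (0.48, adjusted p = 0.00489). These held its highest P3 values, so leaving them out by itself raises the fold change.

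**Figure D2:**
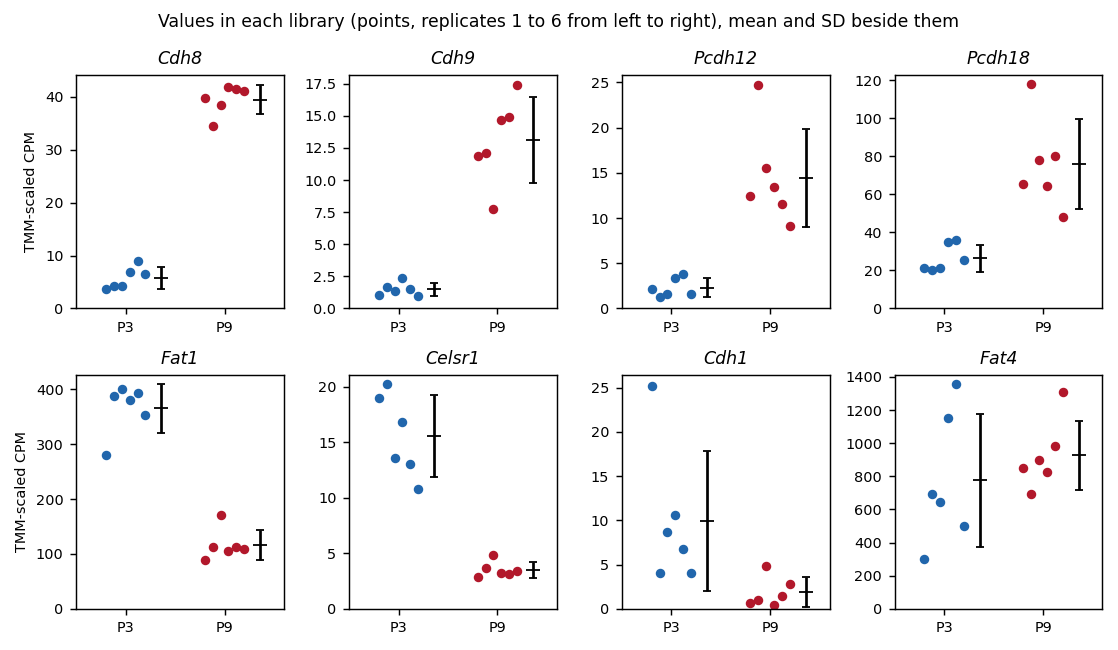
TMM-scaled CPM of 8 members in each library, P3 in blue and P9 in red, with the mean and SD of the 6 libraries beside the points. Cdh8, Cdh9, Pcdh12 and Pcdh18 were higher in every P9 library, Fat1 and Celsr1 in every P3 library, and the ages overlapped for Cdh1 and Fat4.

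Of the 10 delta protocadherins 8 rose and 2 did not pass. Of the delta-1 genes, Pcdh1, Pcdh7, Pcdh9 and Pcdh11x rose and Pcdh20 did not pass. Pcdh1 (ENSMUSG00000051375.15, chromosome 18, 38185914 to 38212048), an adhesion protein of epithelia and neurons, went from 24.2, 31.7 and 43.5 CPM at P3 to 67.8, 82.4 and 104 CPM at P9. Its highest P9 value was in replicate 2, the library with the highest pericyte sum (6375 CPM), and its highest P3 values were in replicates 4 and 5. Pcdh1 rose 2.44-fold (log2 fold change 1.29 ± 0.15, edgeR adjusted p = 5.07e-06). Pcdh9, expressed in brain and retina, went from 12, 17.4 and 23.4 CPM to 26.1, 34.6 and 45.6 CPM (2.03-fold, edgeR adjusted p = 0.000138). Pcdh7 rose 1.78-fold to between 89.0 and 127 CPM and the X-linked Pcdh11x 1.47-fold to between 12.4 and 16.3 CPM. All 4 stood higher in each P9 library than in any P3 library. Pcdh20 was at 0.321 to 1.95 CPM at P3 and 1.22 to 3.61 CPM at P9 (edgeR adjusted p = 0.0673). It passed in DESeq2 (adjusted p = 0.0458) and in edgeR without P3 replicate 1 or without P9 replicate 3 (adjusted p = 0.0489 and 0.0399). The libraries left out were its highest at P3 and its lowest at P9, so the fold change rises without either.

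Of the delta-2 genes, Pcdh18, Pcdh8, Pcdh17 and Pcdh10 rose without overlap of the ages and Pcdh19 did not pass. Pcdh18 (ENSMUSG00000037892.13, chromosome 3, 49743291 to 49757383) was at 20.3, 23.3 and 35.9 CPM at P3 and at 48.3, 71.9 and 118 CPM at P9. P3 replicates 4 and 5, with 34.8 and 35.9 CPM, were the highest of their age, P9 replicate 2 was the highest and P9 replicate 6 the lowest of theirs, as for the pericyte sum. Pcdh18 rose 2.86-fold (log2 fold change 1.52 ± 0.21, edgeR adjusted p = 2.36e-05). Pcdh8, a protocadherin of synapses, went from 7.07, 8.86 and 14.4 CPM to 17.8, 22.9 and 27.5 CPM (2.38-fold, edgeR adjusted p = 1.54e-05). Its lowest P9 value was in replicate 2, where Pcdh18 was highest. Pcdh17, which acts at synapses and in axons, went from 17.7, 21.5 and 27.2 CPM to 39.1, 50 and 61 CPM (2.20-fold, edgeR adjusted p = 2.48e-06). Pcdh10, which guides axons, rose 1.67-fold to between 69.6 and 93.5 CPM. Pcdh19, X-linked like Pcdh11x, ranged from 33.6 to 61.1 CPM at P3 and from 46.2 to 63.4 CPM at P9 (log2 fold change 0.27 ± 0.13, edgeR adjusted p = 0.0875). It passed without P3 replicate 5 (adjusted p = 0.0173) and without P3 replicates 4 and 5 (adjusted p = 0.00538). Those libraries held its highest P3 values, and leaving them out by itself raises the fold change.

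Pcdh12 (ENSMUSG00000024440.12, chromosome 18, 38267092 to 38284401), which encodes a protocadherin of endothelial junctions, was at 1.28, 1.89 and 3.82 CPM at P3 and at 9.09, 12.9 and 24.7 CPM at P9. P9 replicate 2 stood at 24.7 CPM and the other 5 P9 libraries at 15.5 CPM or less, all above P3. The rise was 6.28-fold (log2 fold change 2.65 ± 0.30, edgeR adjusted p = 4.96e-06). Endothelial markers moved unevenly in the same libraries, with 6 of 10 rising, 1 falling and 3 not passing. Their summed CPM, in which Kdr took the most, was 1.29-fold lower at P9 (878 to 1041 CPM at P3, 712 to 818 CPM at P9), whereas the mean log2 level over the list was 1.15 higher. Tie1 and Emcn rose 4.20-fold and 4.89-fold, while Cdh5, the VE-cadherin gene, stood at 8.22 ± 5.61 and 14.0 ± 3.99 CPM (SD, n = 6; edgeR adjusted p = 0.0858). The part of endothelial RNA in the rise of Pcdh12 was not tested.

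The Fat and Dachsous genes mostly fell. Fat1 (ENSMUSG00000070047.14, chromosome 8, 44933100 to 45052257), a giant cadherin that acts on actin and growth, went from 281, 384 and 400 CPM at P3 to 88.8, 110 and 170 CPM at P9. P9 replicate 3 was the highest of its age at 170 CPM and still lay below the lowest P3 library, replicate 1. Fat1 was 3.15-fold lower at P9 (log2 fold change -1.65 ± 0.14, edgeR adjusted p = 2.91e-07). Dchs1, a Dachsous ligand that pairs with Fat4, fell from 143 to 183 CPM down to 67.3 to 107 CPM (1.99-fold lower, edgeR adjusted p = 4.13e-06), and Fat3, which shapes amacrine cell dendrites, from 183 to 249 CPM down to 127 to 172 CPM (1.43-fold lower, edgeR adjusted p = 0.000293). Neither overlapped between the ages. Retinal progenitor markers, 1.80-fold lower in sum at P9, fell in the same libraries.

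Fat4 (ENSMUSG00000046743.6, chromosome 3, 38884667 to 39011992), the receptor for Dchs1, had the most counts of any member. It was at 302, 668 and 1360 CPM at P3 and at 694, 875 and 1310 CPM at P9. The P3 libraries spread widely, with replicate 1 lowest and replicate 5 highest, and replicates 4 and 5 (1150 and 1360 CPM) exceeded at least 5 of the 6 P9 libraries. The difference did not pass (log2 fold change 0.26 ± 0.29, edgeR adjusted p = 0.473). Without P3 replicates 4 and 5 the log2 fold change was 0.80 (edgeR adjusted p = 0.00821). These were the highest P3 libraries of Fat4, so leaving them out by itself raises the fold change. Dchs2 and Fat2 were both near the limit of the measurement. Dchs2 was at 0.392 to 1.78 CPM at P3 and 0.936 to 2.65 CPM at P9 (2.10-fold higher, edgeR adjusted p = 0.0403), a call lost without P3 replicate 2, 3, 4 or 6 or P9 replicate 1, 2, 3 or 5 (adjusted p up to 0.0944). Fat2 was at 0.241 to 3.11 CPM at P3, was listed at 0 in 2 P9 libraries and reached at most 0.431 CPM there (log2 fold change -2.26 ± 0.87, edgeR adjusted p = 0.0402). It no longer passed when P3 replicate 1 or 3 or P9 replicate 1, 3, 4 or 6 was left out. Without P3 replicate 1, which held 3.11 CPM, the log2 fold change was -1.37 (edgeR adjusted p = 0.186).

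All 3 Celsr genes fell, by different amounts. Celsr1 (ENSMUSG00000016028.9, chromosome 15, 85898758 to 86034223), the planar polarity cadherin of dividing epithelia, went from 10.8, 15.2 and 20.2 CPM at P3 to 2.82, 3.31 and 4.80 CPM at P9. It was 4.43-fold lower at P9, with no overlap (log2 fold change -2.15 ± 0.18, edgeR adjusted p = 3.03e-07). Celsr2, which acts with Celsr3 in neurons, went from 229, 259 and 328 CPM to 121, 135 and 144 CPM (2.03-fold lower, log2 fold change -1.02 ± 0.10, edgeR adjusted p = 1.11e-06). Celsr3, the family member of axon guidance, went from 134, 155 and 208 CPM to 108, 133 and 145 CPM and overlapped between the ages (1.25-fold lower, edgeR adjusted p = 0.0212). That call was lost without P9 replicate 5 or 6 (adjusted p = 0.0518 and 0.0515). Since its identical pair of rows may share 1 gene's reads, the level of Celsr3 is uncertain, while its fold change is that of either row. The promoter listed for Celsr2 is shown since this gene fell the most among the Celsr genes with a listed promoter. It holds the letters CAGGTG, the E-box read by Snail and Zeb factors, at 2 places, in capitals. The window is chr3:108415530-108415829 on the minus strand of GRCm38.p6:
Celsr2: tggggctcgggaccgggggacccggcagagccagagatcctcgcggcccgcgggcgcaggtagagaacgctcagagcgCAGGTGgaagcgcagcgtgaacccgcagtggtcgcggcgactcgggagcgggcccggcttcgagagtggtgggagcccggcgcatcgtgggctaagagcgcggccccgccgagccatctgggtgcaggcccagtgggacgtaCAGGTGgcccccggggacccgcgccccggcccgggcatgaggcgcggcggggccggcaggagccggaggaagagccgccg
The matches begin 172 and 30 bases before the listed start. On either strand this motif was present in 7 of 30 promoters of members, 23.3% against 20.2% of all promoters in the table. Of these 7, 3 are neighbouring windows of Cdh7.

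**Figure D3:**
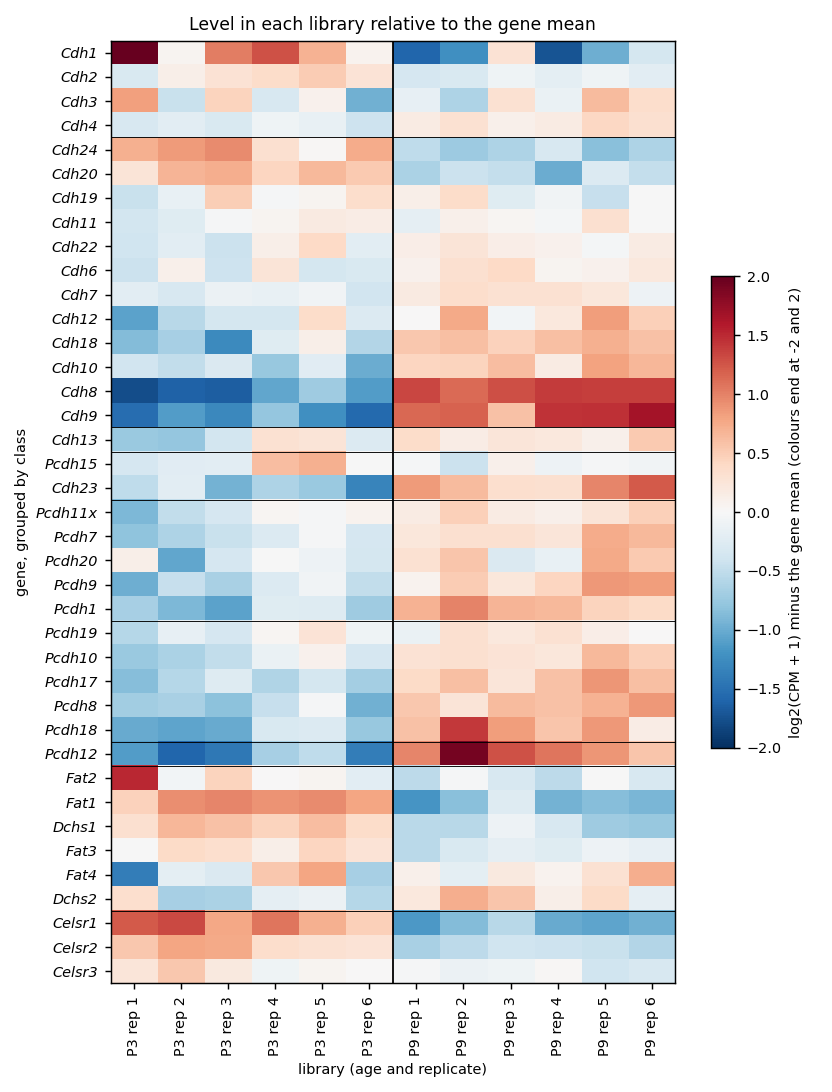
Each of the 39 members in each of the 12 libraries, as log2(CPM + 1) minus the gene's mean, with colours ending at -2 and 2, grouped by class and with a line between P3 and P9. Cdh8, Cdh9 and Pcdh12 turn from blue to red between the ages and Celsr1 and Fat1 from red to blue, while Pcdh15 is highest in P3 replicates 4 and 5 and Cdh1 in P3 replicate 1.

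The tip-link cadherins, which join to each other in hair cells and are also found at photoreceptors, parted. Cdh23 (ENSMUSG00000012819.15, chromosome 10, 60302748 to 60696513) went from 2.29, 4.14 and 6.10 CPM at P3 to 9.28, 12.8 and 18.3 CPM at P9, 3.14-fold (log2 fold change 1.65 ± 0.23, edgeR adjusted p = 3.41e-05). Its partner Pcdh15 was at 171, 200 and 354 CPM at P3 and at 160, 207 and 232 CPM at P9. P3 replicates 4 and 5, at 330 and 354 CPM, lay above every other library, and the ages otherwise overlapped (log2 fold change -0.24 ± 0.18, edgeR adjusted p = 0.275). Leaving out those highest P3 libraries by itself raises the fold change, and the sign turned, to 0.11 (adjusted p = 0.386). Rod markers rose 5.91-fold in sum in these libraries, with 9 of 9 rising. Cdh13, the T-cadherin, which is tethered to the membrane without a cytoplasmic tail and is found on vessels, was at 8.53, 12.1 and 19.1 CPM at P3 and at 16.5, 18.1 and 22.5 CPM at P9. P3 replicates 4 and 5 lay within the P9 range. Its rise was 1.42-fold (edgeR adjusted p = 0.0389) and was lost without P3 replicate 1, 2, 3 or 6 or P9 replicate 1, 3, 4 or 6 (adjusted p up to 0.0863).

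The genes that work with cadherins moved in both directions. Of 40 on the partner lists, 38 were tested, of which 9 rose, 14 fell and 15 did not pass, so that 60.5% were called against 51.8% of all tested genes and 60.4% of those with a summed count of at least 1000. Risers were 23.7% of the partners and genes that fell 36.8%, against 26.1% and 25.6% of all tested genes. Among catenins and their linkers, 6 of 11 fell and 2 rose. Vcl, the vinculin gene, had the largest change of the list and rose 2.94-fold, from 26.2 to 59.2 CPM at P3 to between 71 and 172 CPM at P9 (edgeR adjusted p = 6.14e-05). The armadillo-repeat genes Arvcf and Pkp4, of the p120 catenin family, were 2.75-fold and 2.02-fold lower at P9, and Ctnnal1, an alpha-catenin relative, was 1.71-fold lower. Arvcf went from 156 to 254 CPM at P3 down to 59.0 to 90.3 CPM at P9 (edgeR adjusted p = 6.33e-07). Among planar polarity genes and Fat partners, 5 of 13 fell and 3 rose. Vangl2, which works with Celsr proteins, went from 62.1 to 80.6 CPM down to 30.1 to 41.0 CPM (2.14-fold lower, edgeR adjusted p = 2.96e-07), whereas Prickle2 and Ankrd6 rose 3.13-fold and 3.77-fold. Among cadherin-processing genes 1 of 7 rose and 1 fell, namely Pcsk6, a proprotein convertase gene (3.32-fold higher), and Ncstn, a subunit of gamma-secretase (1.57-fold lower). Among tip-link partners 3 of 7 rose and 2 fell. Whrn, a scaffold gene of the photoreceptor periciliary membrane, rose 1.81-fold, and Adgrv1, which binds in the same complex, was 1.67-fold lower at P9.

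Within an age the libraries differed in their pericyte markers, and members were compared with the log2 pericyte sum over the 6 libraries of each age, 78 relations in all. In median, Rgs5 took the most of that sum, 293 CPM at P3 and 2760 CPM at P9. The median sums were 673 and 4383 CPM. By Pearson's r 3 relations passed (exact permutation test over 720 orders, adjusted p = 0.0361 for each), and by Spearman's rho 0 did (8 at an unadjusted p under 0.05; smallest adjusted p = 0.0722, exact). With 6 libraries the smallest exact p for rho is 0.00278, which the 3 relations reached, and 3 of 78 at that limit cannot adjust below 0.0722. With the mean log2 level of the pericyte markers in place of their sum, 0 passed (14 at an unadjusted p under 0.05; smallest adjusted p = 0.108, exact permutation test). The 3 were Cdh18 at P3 (r = 0.97, rho = 1.0), Cdh22 at P3 (r = 0.93, rho = 1.0) and Cdh7 at P9 (r = 0.92, rho = 1.0). Without the 2 libraries farthest from the median sum, r was 0.96, 0.72 and 0.98 over 4 libraries. Pcdh1, Pcdh12 and Pcdh18 reached r of 0.80 or more in both ages. For Pcdh1 r was 0.97 at P3 and 0.84 at P9, for Pcdh12 0.87 and 0.95, and for Pcdh18 0.91 and 0.92, and none of these passed after adjustment (lowest adjusted p = 0.124, exact permutation test). Without the 2 farthest libraries, r for Pcdh18 was 0.41 and 0.27, for Pcdh12 0.14 and 0.69, and for Pcdh1 0.86 and 0.00, so that the relations of Pcdh18 in both ages, Pcdh12 at P3 and Pcdh1 at P9 rest on P3 replicates 4 and 5 or P9 replicates 2 and 6. P3 replicates 4 and 5 were also highest of their age in the rod and Mueller glia sums. Relations with those sums were not tested. The lowest r were those of Cdh24 at P3 (-0.95), Fat4 at P9 (-0.89) and Pcdh8 at P9 (-0.87), none of which passed (adjusted p = 0.108, 0.200 and 0.234, exact permutation test). Without the 2 farthest libraries r was -0.85 for Cdh24, 0.00 for Fat4 and 0.37 for Pcdh8.

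**Figure D4:**
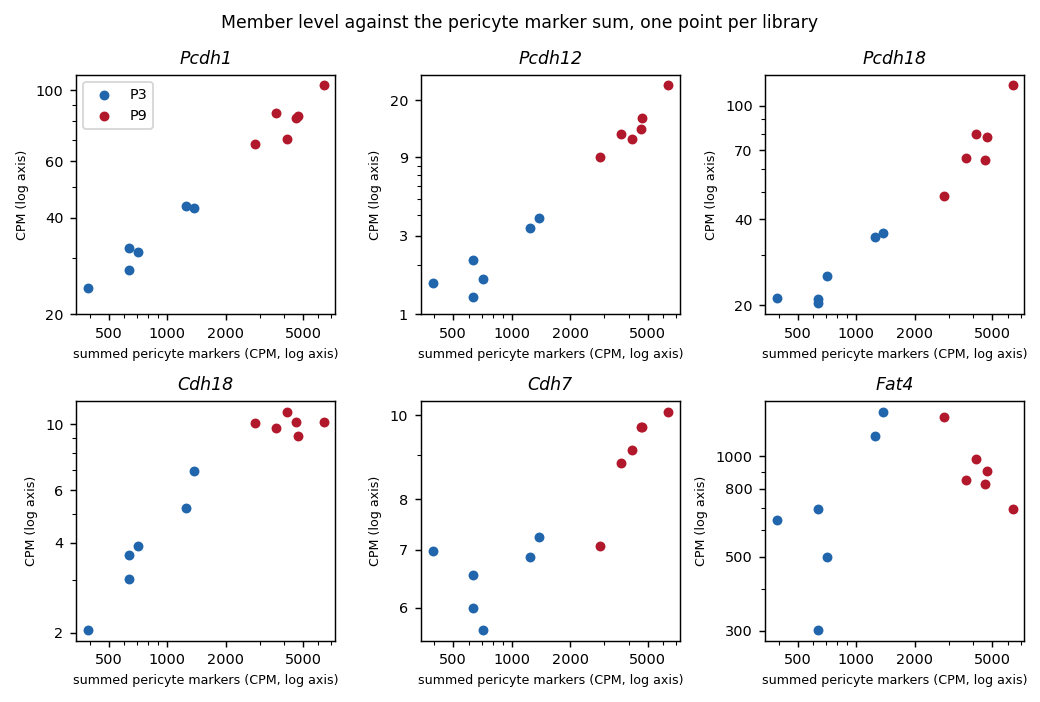
CPM of 6 members against the summed CPM of 12 pericyte markers, log axes, one point per library, P3 in blue and P9 in red. Pcdh1, Pcdh12 and Pcdh18 lie higher where the pericyte sum is higher in both ages, with P3 replicates 4 and 5 and P9 replicate 2 at the upper ends, while Fat4 lies lower at P9 where the sum is higher.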

How the data were processed

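HA-ribosome RNA of 12 retina libraries was analysed from the expected counts that the authors made with RSEM and deposited for each gene, with no depth scaling. STAR, Trim Galore, FastQC and limma also stand in the submitters' processing notes, with build mm10, and their settings were not stated there. Per the labels' protocols the library kit keeps strand. Whether the counting used it is not given either, so overlapping antisense genes cannot be told apart.

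Counts were rounded, filtered with filterByExpr (34452 rows removed), scaled by TMM and fitted with the quasi-likelihood method of edgeR (version 4.0.16, R 4.3.3). Libraries held 26839599 to 37776172 counts. limma 3.58.1, DESeq2 1.42.0, other scalings and filters, each library left out and 2 pairs of libraries left out were alternatives. The labelled age sets the group. Replicate numbers only follow accession order. The members, lists and alternatives were chosen with earlier results of these data known. Named in full were members called with at least a 2-fold change and a mean of at least 5 CPM, and the 5 with the most counts. Up to 3 genes were named per partner list, and some listed genes are not reported here. Others named were chosen after their values were seen. Marker sums used log2 CPM, and correlations log2(CPM + 1). The edgeR, DESeq2 and limma fits were also run on simulated counts in which far fewer genes changed than passed here. The marker and correlation tests were not run on simulated counts. Coordinates and promoter sequences are from RefSeq on GRCm38.p6, matched by symbol. Members on chromosome 18 were left out of the promoter counts, and 27 members off chromosome 18 had a promoter.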

Additional observations from a re-analysis of the deposited data

Results flagged for a closer look

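In 78 groups of 6 libraries (39 members at 2 ages), 3 held a library whose gap to the nearest other exceeded 0.625 of the group's range. Chance flags about 1 in 20 groups, or 3.9 here. Cdh1 stood at 25.2 CPM in P3 replicate 1, with the next library at 10.6 CPM. Fat2 stood at 3.11 CPM in the same library, with the next at 0.969 CPM, and the fibroblast marker sum was 541 CPM there. Fat1 stood at 170 CPM in P9 replicate 3, with the next at 113 CPM. What set these libraries apart was not tested.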

How the results depend on the processing

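Of the 31 called members, 24 kept direction and call under every alternative run for them, 7 lost the call under at least 1 (Cdh6, Cdh12, Cdh13, Celsr3, Dchs2, Fat2 and Pcdh11x) and 0 changed direction. Fat2 was not tested under a filter of a mean of at least 1 CPM. Across other scalings, filters, tools and thresholds, members that rose numbered 15 to 21 and members that fell 9 to 11. Without P3 replicates 4 and 5 they numbered 22 and 11, and without P9 replicates 5 and 6, 16 and 9. Leaving out 1 library at a time gave 17 to 21 and 9 to 11. Cdh12 and Pcdh11x lost their calls without P9 replicates 5 and 6 (adjusted p = 0.0982 and 0.0627, edgeR). Partner genes that rose numbered 7 to 10 and that fell 13 to 14, and 12 to 13 marker classes differed. The 3 relations with the pericyte sum became 0 with the mean of log2(CPM + 1) over the list. Among members that did not pass, Cdh3 changed sign without 1 library (log2 fold change -0.10 to 0.39 over the libraries left out), without P3 replicates 4 and 5 (-0.01) and without P9 replicates 5 and 6 (-0.24), and Pcdh15 without P3 replicates 4 and 5 (0.11). Summing the Celsr3 rows, chosen after seeing the data, changed no call. Errors were widest for Fat2, Cdh1 and Cdh19 (SE of the log2 fold change 0.87, 0.58 and 0.52). No paired analysis was possible because no replicate number in the labels links a P3 to a P9 library.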
